A study of Mus musculus with 3 samples.

Results

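Il6, Il12a, Il12b, Ifnb1, Il27, Csf2, Csf3, Lcn2, Saa3 and Acod1 are 10 genes that macrophages are known to switch on late in the response to lipopolysaccharide, either as secreted cytokines or as effectors of host defence. They were chosen by name, and all 10 symbols matched 1 gene identifier each among the 55536 annotated genes of the deposited tables. Their RNA was read in chromatin-fraction total RNA-seq of macrophages grown from the bone marrow of C57BL/6J mice and given 100 ng/ml Lipid A for 10 min, as 1 group of 3 replicates. Lipid A is the membrane anchor of lipopolysaccharide and the ligand of the TLR4 receptor complex, and the chromatin fraction is the RNA left bound to chromatin, where newly made transcripts are common. The labels name no altered allele, leave age and sex as not collected, and give replicates 1, 2 and 3 starting amounts of 1 µg, 250 ng and 500 ng of RNA, so amount and replicate cannot be told apart. The labels name the same donor for all 3 libraries, and their spread may therefore be partly technical. No unstimulated library and no later time are used here, so the levels below are levels at 10 min and whether they changed was not tested.

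Lipid A bound to TLR4 starts signalling through the adaptors MyD88 and TRIF, which activate NF-kB, the MAP kinases and IRF3. Early response genes have open promoters and are transcribed within minutes, whereas many late genes need remodelled chromatin or a newly made protein, such as the nuclear protein IkB-zeta (gene Nfkbiz) for Il6 and Lcn2. The group of 10 comprises members of the IL-6 and IL-12 cytokine families (Il6, Il12a, Il12b, Il27), a type I interferon (Ifnb1), a pair of myeloid growth factors (Csf2, Csf3), a siderophore-binding protein (Lcn2), an acute-phase apolipoprotein (Saa3) and the enzyme that makes itaconate (Acod1).

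Counts depend on which annotated transcripts the reads can be placed on. For Saa3 and Lcn2 most or all of the counts fell on transcripts that read on into an intron. In Lcn2 these were at most 4 estimated counts in a library, all in replicate 3. The windows below show where the spliced and the intron-keeping transcript of each gene part, from GENCODE M21 transcript sequences on GRCm38 (mm10), 5′ to 3′. Lower case marks the last 30 bases of exon 2, which both transcripts share, and capitals mark the 30 bases that follow. In Saa3, on the minus strand of chromosome 7, exon 2 ends at 46715010 and Saa3-202 keeps 2051 of the 2282 bases of the intron after it. In Lcn2, on the minus strand of chromosome 2, exon 2 ends at 32387028 and Lcn2-202 keeps 472 of the 986 bases of the intron.
Saa3-201, spliced: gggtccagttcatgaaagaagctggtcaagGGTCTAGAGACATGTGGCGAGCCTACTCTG
Saa3-202, reading on: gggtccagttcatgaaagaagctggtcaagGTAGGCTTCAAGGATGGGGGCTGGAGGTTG
Lcn2-201, spliced: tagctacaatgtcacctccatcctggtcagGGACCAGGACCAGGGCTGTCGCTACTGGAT
Lcn2-202, reading on: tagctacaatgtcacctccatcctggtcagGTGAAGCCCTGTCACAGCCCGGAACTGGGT
In both genes the capitals of the intron-keeping transcript begin with GT, the usual first bases of an intron.

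Upstream sequence is shown for a gene with no count in any library, Ifnb1, and for the gene with the highest count, Acod1. These are RefSeq promoters on GRCm38.p6, and 8 of the 10 genes had an entry in that table. The printed sequences are cut where the annotated transcript begins. Matches were counted in the uncut 250 bases before the RefSeq start. Capitals mark matches, on either strand, to the NF-kB consensus (GGGAAATTCC in Ifnb1) and to the interferon regulatory factor type motif AANNGAAA.
Ifnb1, chr4:88522795-88523044, minus strand: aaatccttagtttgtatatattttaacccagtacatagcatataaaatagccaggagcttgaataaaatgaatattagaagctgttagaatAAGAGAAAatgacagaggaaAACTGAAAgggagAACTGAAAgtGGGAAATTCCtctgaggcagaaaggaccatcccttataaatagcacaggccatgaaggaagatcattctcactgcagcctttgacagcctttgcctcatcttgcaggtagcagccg
Acod1, chr14:103046762-103046976, plus strand: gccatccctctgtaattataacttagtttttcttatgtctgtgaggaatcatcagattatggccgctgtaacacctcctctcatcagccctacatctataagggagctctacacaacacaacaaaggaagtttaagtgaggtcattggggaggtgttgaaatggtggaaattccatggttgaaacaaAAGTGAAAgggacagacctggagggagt
Ifnb1 held 1 match to the NF-kB consensus, beginning at position -116 from the RefSeq start, and 3 matches to AANNGAAA, while Acod1 held 0 and 1. Of the other genes with an entry, Il6 held 1 and 0 and Saa3 held 0 and 1. Il12a, which also had no count, held 0 of each, as did Il12b. Csf2 and Lcn2 held 0 of each in the bases searched, which are not those next to the annotated start. The Csf2 bases end 232 bases before that start. The RefSeq start of Lcn2 lies 513 bases inside the annotated gene, as do all the bases searched for it. Matches next to the annotated starts of Csf2 and Lcn2 were therefore not tested. Of 32851 promoters of 250 bases, 3.9% held the NF-kB consensus and 21.3% held AANNGAAA. The libraries measure RNA and not binding, so the matches describe letters only.

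Each library was quantified by the authors in 3 tables, a gene table and a first transcript table made from the same alignments, and a second transcript table made directly from the reads. The gene tables held 15698066, 16005795 and 14386725 estimated counts on genes in replicates 1, 2 and 3, and the second tables held 23952474, 28155711 and 24946455. The counting floor is set at 3 counts, the approximate one-sided 95% upper limit of a count of 0, or 0.191, 0.187 and 0.209 CPM (counts scaled by library size) in the gene tables and 0.125, 0.107 and 0.12 CPM in the second tables. Such floors, and the exact two-sided 95% Poisson intervals below, cover counting error only. All 6 macrophage markers were above the floor in every gene table, with a median of 117 ± 29.9 TPM (transcript abundance normalized to length and library size; SD, n = 3), against 0 of 9 neutrophil, 0 of 4 T cell, 0 of 4 fibroblast, 1 of 4 mast cell, 2 of 4 dendritic cell and 1 of 3 erythroid markers. Cd3e, Cd3g, Lck, Elane, Hba-a1 and Hbb-bt were at 0 in all 3 gene tables. The erythroid marker above the floor was Alas2, with 56.8, 57.4 and 24.4 counts there and 300, 459 and 252 in the second tables. The second tables placed 4 of 9 neutrophil, 2 of 4 T cell and 4 of 4 fibroblast markers above the floor. The T cell markers were Cd3d, with 121, 536 and 605 counts, and Cd3g, with 17.1, 71.7 and 76.5, so the 0 of Cd3g depended on the quantification.

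At least 1 estimated count in some library was given to 8 of the 10 genes in either quantification. Most protein-coding genes also had a count, since of 22028 only 6762 were at 0 in every gene table and 3995 in every second table. The 8 of 10 is thus not particular to these genes. More than 3 estimated counts in all 3 libraries were given to 3 of 10 in the gene tables (Il27, Saa3 and Acod1), against 55.5% of protein-coding genes and 30.4% of all annotated genes. With Il12b and Csf3 added, 5 of 10 passed in the second tables, against 71.4% of protein-coding genes and 47.3% of all genes. Il12b passed there with 3.36 counts in replicate 2, and 4 of 10 passed with counts rounded to whole numbers. The shares of the 10 genes above the floor were thus near those over all annotated genes and under those over protein-coding genes. With 10 genes they are a description. Il12a and Ifnb1 had 0 counts in every library of both tables. Fewer cells making an RNA and less RNA per cell cannot be told apart in such bulk libraries.

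**Figure D1:**
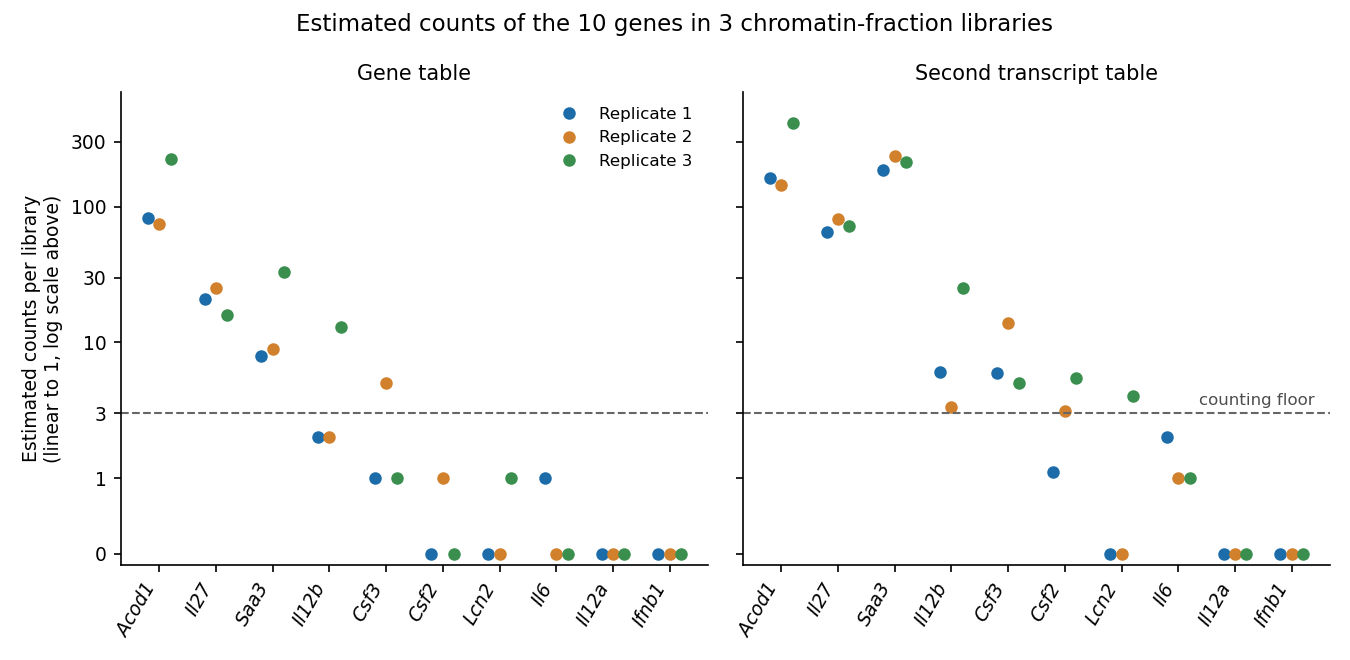
Estimated counts of the 10 genes in each library (points, 1 colour per replicate), in the gene table on the left and the second transcript table on the right; the axis is linear to 1 and logarithmic above. Il12a and Ifnb1 are at 0 in all 3 libraries of both panels, and Acod1 reaches 225 and 411 counts in replicate 3.

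Among the interleukin genes, Il27 was the only one above the floor throughout both tables. Il6 (ENSMUSG00000025746.11, chr5:30013114-30019981, plus strand) encodes the fever and acute-phase cytokine, and had 1, 0 and 0 estimated counts in replicates 1, 2 and 3 of the gene tables and 2, 1 and 1 in the second tables. No library was above the floor, and the few counts lay on 3 different transcripts in the second tables. Il12a (ENSMUSG00000027776.12, chr3:68690644-68698547, plus strand) encodes the subunit found in IL-12 but not in IL-23, and none of its 6 annotated transcripts had a count.

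Il12b (ENSMUSG00000004296.14, chr11:44400063-44414033, plus strand) encodes the subunit that IL-12 and IL-23 share. It had 2, 2 and 13 counts in the gene tables and 6.03, 3.36 and 25.2 in the second tables. Replicate 3 was the highest of the libraries in both, and the only one above the floor in the gene tables. Its partner in IL-23, Il23a, had 1, 6 and 3 counts in the gene tables and 48.5, 156 and 124 in the second tables, so only the second tables placed it above the floor in every library.

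Il27 (ENSMUSG00000044701.5, chr7:126589010-126594941, minus strand) encodes the alpha subunit of IL-27, a cytokine that both promotes and restrains T cell responses. It had 21, 25 and 16 counts in the gene tables and 65, 81 and 72 in the second tables, with little spread between libraries. Per length this was 1.59 ± 0.367 TPM in the gene tables (SD, n = 3). Ebi3, the other subunit of IL-27, had 53.8, 24 and 34.3 counts and 2.54 ± 1.31 TPM, so both subunits of the cytokine were seen in every library. Of the 1021 exonic bases of Il27, 103 lie inside exons of Apobr on the opposite strand, and Apobr had 1147, 1313 and 1558 counts. The sources do not say whether counting used strand, and Il27 counts from those bases are therefore uncertain.

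Ifnb1 (ENSMUSG00000048806.4, chr4:88522025-88522774, minus strand) is the interferon that starts the antiviral feedback loop, and has a single exon of 750 bases, so no part of its span lies outside the annotated exon. Of the 17 other type I interferon genes, 14 had 0 counts in every gene table and 12 in every second table. Ifnk was the sole one of the 17 above the floor in all 3 gene tables, with 9, 15 and 7 counts. Ifna16 had 0 counts in the gene tables and 68, 145 and 165 in the second tables, so its 0 depended on the quantification, unlike that of Ifnb1. The neighbour Hacd4, 83097 bases away on the same strand, had 1483, 2059 and 1254 counts.

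The growth factor genes were at or near the floor. Csf2 (ENSMUSG00000018916.5, chr11:54247271-54249667, minus strand), which encodes GM-CSF, had 0, 1 and 0 counts in the gene tables and 1.12, 3.1 and 5.51 in the second tables. Csf3 (ENSMUSG00000038067.2, chr11:98701263-98703629, plus strand), which encodes G-CSF, had 1, 5 and 1 counts in the gene tables and 6, 14 and 5 in the second tables. Replicate 2 was the highest for Csf3 in both tables, whereas for Csf2 it was the highest in the gene tables and replicate 3 in the second tables. Med24, which lies 962 bases beyond Csf3 on the opposite strand, had 848, 716 and 643 counts, and Il3, 15636 bases from Csf2, had 0 in all 3. Csf1, the growth factor on which macrophages depend, stood apart from both with 1051, 571 and 732 counts and 17.6 ± 7.69 TPM.

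Lcn2 (ENSMUSG00000026822.14, chr2:32384633-32388252, minus strand) encodes lipocalin 2, which starves bacteria of iron by binding their siderophores. It had 0, 0 and 1 counts in the gene tables and 0, 0 and 4 in the second tables, all of them on the intron-keeping Lcn2-202. Lcn2-201, the transcript with the spliced window printed above, was given 0 in every library. Lcn2 is also a neutrophil granule gene. The 9 neutrophil markers together had 17, 22 and 4 counts in the gene tables, none of them above the floor in all 3. The granule gene Ngp was the highest of them in the gene tables, with 6, 14 and 2 counts there and 13, 31 and 9 in the second tables, and Elane had 0 in every gene table. In the second tables Cxcr2 was the highest of the 9, with 148, 180 and 171 counts, against 1, 0 and 0 in the gene tables. Mpo had 44.1, 101 and 68.4 second table counts and Camp had 15, 19 and 7. The part of neutrophil RNA in the Lcn2 counts was not tested.

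Acod1 (ENSMUSG00000022126.6, chr14:103046977-103056573, plus strand) encodes the mitochondrial enzyme that makes the antibacterial metabolite itaconate, and had the most counts of the 10 genes in the gene tables. It had 83, 74 and 225 counts in the gene tables and 162, 144 and 411 in the second tables, all on its single annotated transcript. Scaled for library size by TMM (trimmed mean of M values), this was 5.33, 4.36 and 16.5 CPM, with 95% Poisson intervals of 4.24 to 6.61, 3.42 to 5.47 and 14.4 to 18.8. The interval of replicate 3 lay above those of replicates 1 and 2, which overlapped each other. No 31-base stretch of the transcript occurs in a transcript of another gene.

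Saa3 (ENSMUSG00000040026.8, chr7:46711998-46715700, minus strand) is the serum amyloid A gene that macrophages themselves express in mice, and the tables gave different pictures of it. The gene tables gave it 8, 9 and 33 counts, with replicate 3 the highest. The second tables gave it 185, 238 and 212 counts, with no such difference. Summed over libraries, the gene table count was 7.87% of the second table count, against a median of 52.5% (quartiles 22.7% and 64.9%) over 15728 protein-coding genes above the floor in the second tables, and 19.1% of those genes had a lower value. The same value was 53.3% for Acod1 and 28.4% for Il27.

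Nearly all of the second table count of Saa3 lay on Saa3-202, the transcript that reads on into the intron in the windows printed above. Saa3-202 had 6, 5 and 29 counts in the first transcript tables and 182, 230 and 198 in the second, which was 98.4%, 96.5% and 93.3% of the second count of the gene. The spliced Saa3-201 had 2, 4 and 4 counts in the first tables and 3, 8.33 and 14.3 in the second. Of the 2200 bases of Saa3-202, 265 in 3 stretches (12%) lie in 31-base words that also occur in transcripts of other genes, 3039 genes in all. Whether reads from such shared words make up the difference between the tables was not tested. The paralog Saa4, 12298 bases from Saa3, had 0 counts in the gene tables and 45.5, 171 and 163 in the second. Saa2 had 6, 4 and 1 counts in the gene tables and 7, 7 and 4 in the second, and Saa1 had 0 in both.

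**Figure D2:**
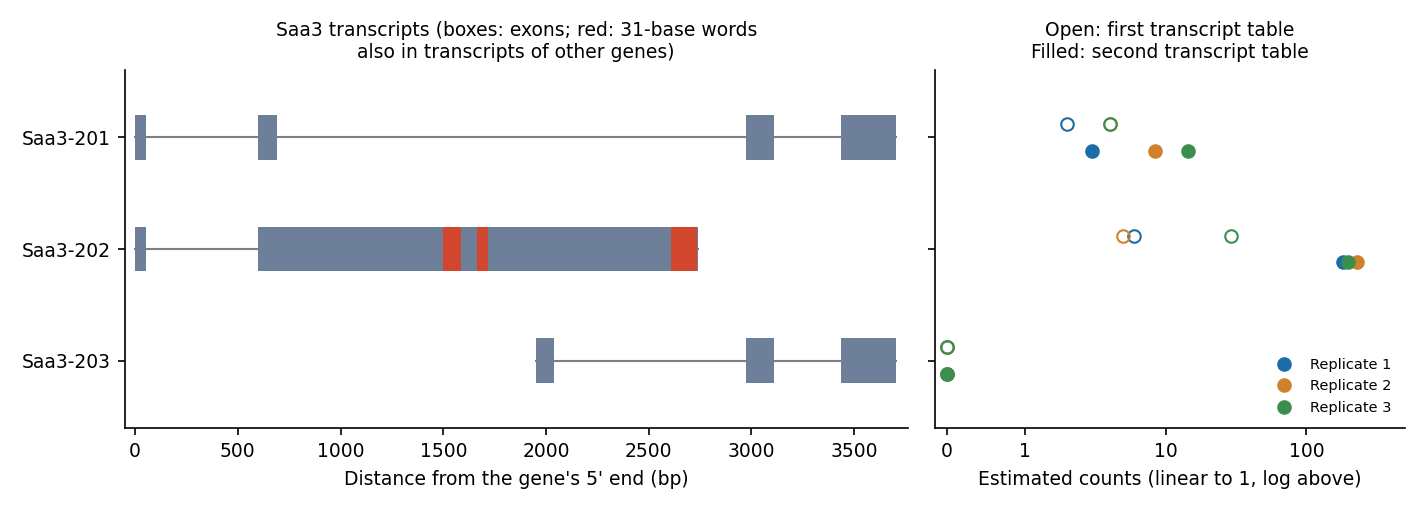
Left, exons (boxes) of the 3 annotated Saa3 transcripts by distance from the 5′ end of the gene in base pairs, with the 3 stretches of Saa3-202 that hold words shared with other genes in red; right, estimated counts of each transcript per replicate in the first (open circles) and second (filled circles) transcript tables. Saa3-202 holds 182 to 230 counts in the second tables and 5 to 29 in the first, and points of replicates 2 and 3 coincide at 4 counts for Saa3-201.

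Ordered by mean TPM in the gene tables, Acod1 came first with 3.21 ± 1.99, then Il27 with 1.59 ± 0.367, Saa3 with 1.01 ± 0.49, Il12b with 0.207 ± 0.22 and Csf3 with 0.117 ± 0.107 (SD, n = 3 each). Csf2 and Lcn2 followed with 0.0333 ± 0.0577 each and Il6 with 0.01 ± 0.0173. The 1 neighbouring pair whose ranges over libraries did not overlap was Saa3 and Il12b, at 0.62 to 1.56 TPM for Saa3 and 0.07 to 0.46 TPM for Il12b. Acod1 and Il27 overlapped, at 1.74 to 5.47 TPM for Acod1 and 1.17 to 1.82 TPM for Il27. Acod1 exceeded 60.5% of the 22028 protein-coding genes in mean TPM, Il27 54.5% and Saa3 51.6%. In the second tables the first place changed, with Saa3 at 4.88 ± 0.67 TPM, Acod1 at 3.94 ± 2.58 and Il27 at 3.45 ± 0.0642.

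Acod1 and Il12b were higher in replicate 3 than in the other libraries by more than counting error in both quantifications. Il12b had 0.128, 0.118 and 0.951 TMM-scaled CPM in replicates 1, 2 and 3 of the gene tables, with intervals of 0.0156 to 0.464, 0.0143 to 0.425 and 0.507 to 1.63. In the second tables the scaled CPM of Acod1 was 7.15, 4.71 and 16.9, and that of Il12b was 0.266, 0.11 and 1.04, again with the interval of replicate 3 above the others. Saa3 was higher in replicate 3 in the gene tables, at 0.514, 0.53 and 2.42 scaled CPM, but had overlapping intervals in the second tables, at 8.14, 7.8 and 8.75. Il27 had overlapping intervals in both. Without replicate 3 the mean scaled CPM was 4.97 against 8.72 for Acod1, 0.126 against 0.399 for Il12b and 0.535 against 1.15 for Saa3.

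**Figure D3:**
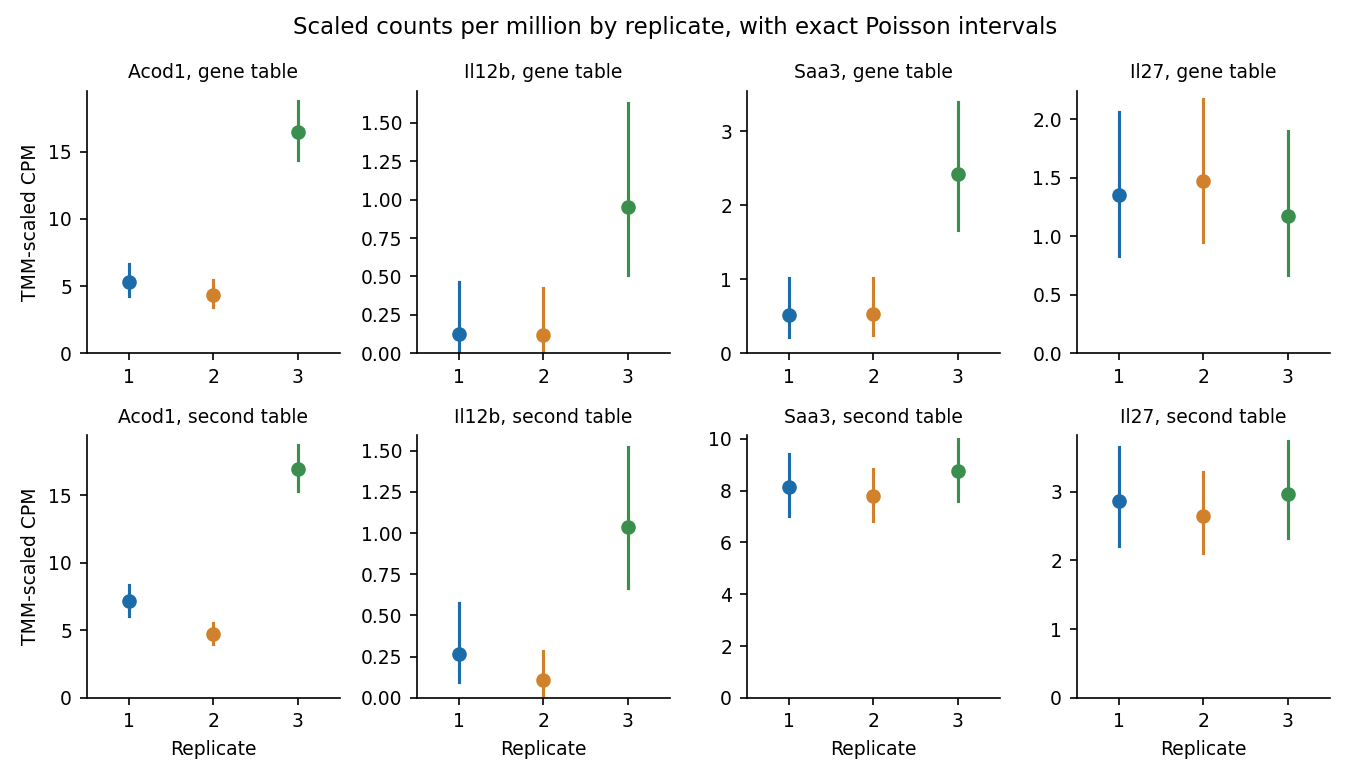
TMM-scaled CPM of Acod1, Il12b, Saa3 and Il27 by replicate, in the gene table (top) and the second transcript table (bottom), with exact 95% Poisson intervals as bars. Acod1 reaches 16.5 and 16.9 and Il12b 0.951 and 1.04 in replicate 3, whereas Saa3 stands out there in the top row alone.

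Of the members above the floor in every library, 2 of 3 in the gene tables (Saa3, Acod1) and 4 of 5 in the second tables (Il12b, Il27, Saa3, Acod1) had their highest scaled CPM in replicate 3, against 27.7% and 27.5% of protein-coding genes above the floor. For Il27 and Saa3 the second table intervals of the replicates overlapped, so of these 4 only Il12b and Acod1 stood out there by more than counting error. With so few genes these shares are a description. Of the early response genes, 0 of 12 were highest in replicate 3 and 11 of 12 in replicate 1, against 40.9% of protein-coding genes above the floor highest in replicate 1. Replicate 1 was also the highest for 9 of 11 receptors, 10 of 14 regulators and 5 of 6 macrophage markers, so the early genes were not alone in this. Summed scaled CPM was 7.45, 6.83 and 21.2 over the 10 genes in replicates 1, 2 and 3, against 1500, 1067 and 508 over the early genes and 134, 117 and 102 over the 18 other late response genes. Most of the sum over the 10 genes was Acod1 alone, at 5.33, 4.36 and 16.5, with Saa3 at 0.514, 0.53 and 2.42. It therefore does not describe the 10 genes as a group. Of the other late genes, 5 of the 12 above the floor were highest in replicate 3 (Ccl5, Nos2, Ptges, Marco and Cd40, named after their values were seen). Summed scaled CPM of marker lists was 2325, 1621 and 1731 for macrophages, 1.09, 1.3 and 0.293 for neutrophils, 8.73, 11.7 and 10 for dendritic cells, and 0, 2.59 and 3.44 for fibroblasts. The part of RNA amount or of other cells in the replicate 3 values was not tested.

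Set beside other genes of the same pathway, the 10 genes were low, and their receptors and regulators had higher medians. The list median was 0.0683 ± 0.0208 TPM over the 10 genes, against 1 ± 0.533 TPM over the 18 other late genes, 40.5 ± 9.66 TPM over the 12 receptor genes, 37.3 ± 11.2 TPM over the 14 transcription regulators, 36.6 ± 24.2 TPM over the 12 early response genes and 0.728 ± 0.155 TPM over all protein-coding genes (SD, n = 3). On the log2(TPM + 1) scale the median of the 10 genes minus that of the early genes was -5.92, -4.96 and -3.82 in replicates 1, 2 and 3, a mean of -4.90 ± 1.05. Minus the receptors it was -5.63, -5.20 and -4.92, a mean of -5.25 ± 0.36. The sign was the same in 3 of 3 libraries for each, and no test was made because the lists were chosen with these data known. Differences on this scale understate the fold of low genes.

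**Figure D4:**
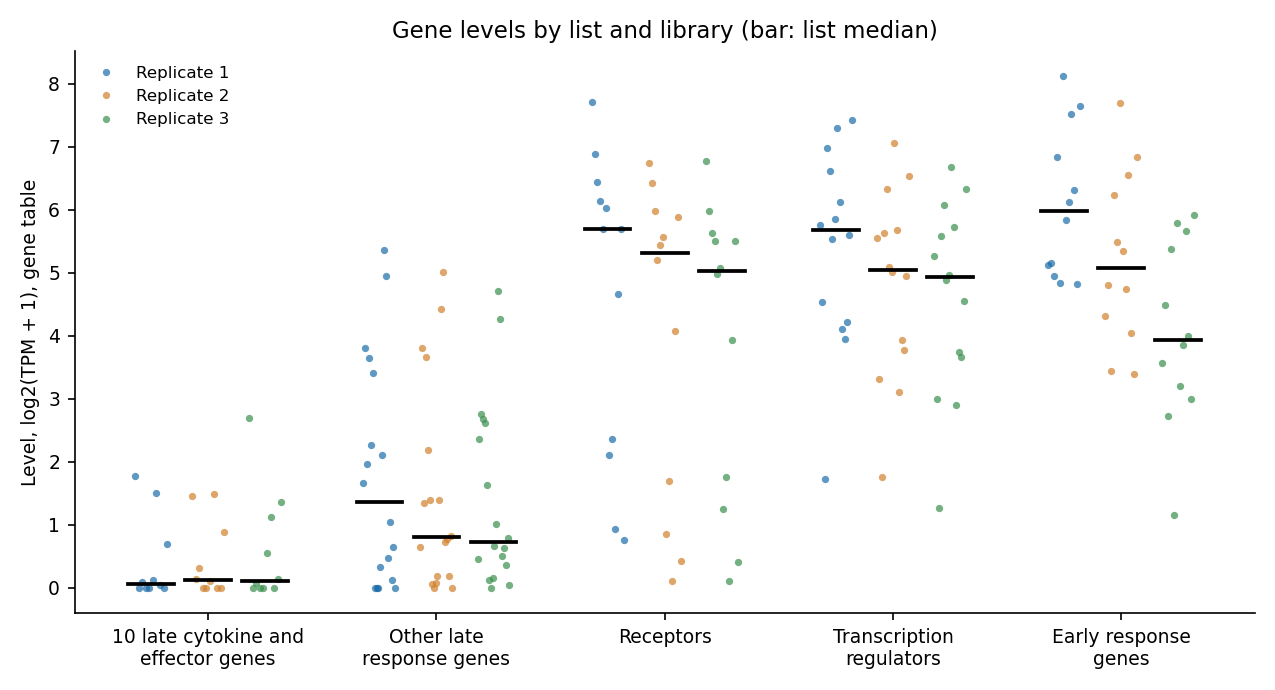
Levels of single genes, as log2(TPM + 1) of the gene table, by list and replicate (points), with the median of each list in each library as a bar. The medians of the 10 genes lie between 0.06 and 0.12, and those of the early response genes between 3.93 and 5.98.

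The receptor list was led by the receptor chains for Csf2, with Csf2ra at 141 ± 59 TPM and Csf2rb at 87.8 ± 27.7 TPM (SD, n = 3), although Csf2 itself was at or near 0. Its lowest genes were Slc22a17, a receptor for lipocalin 2, at 0.453 ± 0.205 TPM and Il27ra, the receptor of IL-27, at 0.35 ± 0.485 TPM. Il27ra had 7, 3 and 3 counts in the gene tables and 85, 133 and 95 in the second tables. Receptor genes above the floor in every library numbered 11 of 12 in the gene tables and 12 of 12 in the second tables.

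All 14 regulators were above the floor in every library, with Irf8, an interferon regulatory factor of myeloid cells, at 130 ± 26.9 TPM. The lowest were Nfkbiz, the cofactor of Il6 and Lcn2 named above, at 10.1 ± 5.34 TPM, and Cebpd at 2.02 ± 0.533 TPM. All 12 early genes were above the floor, led by the AP-1 subunit gene Fos at 179 ± 114 TPM and the mRNA decay factor gene Zfp36 at 124 ± 70.3 TPM, with the cytokine genes Cxcl2 at 15.1 ± 13 TPM and Tnf at 14.6 ± 11 TPM lowest. Of the 18 other late genes, 12 were above the floor in the gene tables and 15 in the second tables. Il15, at 28.5 ± 10.2 TPM, and Il18bp, at 26.4 ± 7.12 TPM, led that list, and Serpinb2, at 0.01 ± 0.0173 TPM, and Cxcl9, with 0 in all gene tables, ended it.

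Annotated exons cover different shares of the 10 genes, from 14.1% of the span of Il12b, 17.2% of Il27, 21.5% of Il12a and 27.3% of Acod1 to 70.4% of Saa3, 72.5% of Lcn2 and 100% of Ifnb1. Intron reads outside annotated exons have no place in these tables, so unspliced RNA of Il12b or Il12a would be counted from a smaller share of the gene than that of Ifnb1. The genes have 26 annotated transcripts, 7 of type retained_intron, of which 9 had more than 3 counts in some library. The read assignment SD that the gene tables give was 0 counts for each of the 10 genes.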

How the data were processed

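The 10 genes, the lists beside them and the descriptions given were chosen with earlier results of these data known. For each of 3 libraries the authors deposited estimated counts and TPM per gene and per transcript, per the file headers. The gene table and the first transcript table came from transcriptome alignments to mm10 with GENCODE M21, and the second transcript table from the reads and an index, per the deposited readme files. No source used here gives the programs, their versions or the use of strand. The deposited gene table also gives the standard deviation of each count from read assignment, per the file headers. Rows that name no annotated gene held 1.16%, 0.459% and 0.351% of gene table counts in replicates 1, 2 and 3 and were left out.

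Second table values were summed per gene. Levels and the floor used the estimated counts as deposited. Counts rounded to whole numbers gave the Poisson intervals and the TMM factors, which were 0.992, 1.061 and 0.950 (0.947, 1.086 and 0.973 for the second table) from edgeR 4.0.16 in R 4.3.3. DESeq2 1.42.0 size factors, library totals, no filter, another floor, another pseudocount, the other tables and leaving out each library were alternatives. Intervals are exact Poisson (scipy 1.17.1). With 1 group there was no contrast and no p-value. The pseudocount was 1. All 10 genes were named, with transcripts above 3 counts, the 2 highest and 2 lowest genes of each list by mean TPM, partner subunits and neighbouring genes, and a few genes under this rule are not reported here. Shared words of 31 bases were searched on both strands of all GENCODE M21 transcripts.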

Additional observations from a re-analysis of the deposited data

How the results depend on the processing

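No paired analysis was possible because there is 1 group. The count of the 10 genes above the floor was 5 with the second transcript tables, against 3, and 2 or 3 under a floor of 10 counts, a TPM of 1 or more, the first transcript tables or without any 1 library. With counts rounded to whole numbers, an alternative chosen after seeing the data, it was 3 in the gene tables and 4 in the second tables. The median level of the 10 genes, 0.09 on the log2(TPM + 1) scale, was 0.24 with the second tables, 0.33 over the genes that reached 0.1 TPM in some library and -2.59 with a pseudocount of 0.1. With that pseudocount the median difference was -7.53 from the early genes and -7.90 from the receptors, which follows from the pseudocount itself. Without each library in turn the differences ranged between -5.44 and -4.39 from the early genes and between -5.42 and -5.06 from the receptors. The level of 4 of 10 genes (Il27, Csf2, Csf3 and Saa3) moved by more than the spread between libraries with the second tables, and that of 0 of 10 with another scaling. Csf3 averaged 0.0667 scaled CPM without replicate 2, against 0.144, and the gene table counts of Il6, Csf2 and Lcn2 rested on 1 library each. Depth limits all genes at the floor, where a level and its absence could not be told apart.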
